A study of Mus musculus with 3 samples.

Results

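Spatial expression was read from 1 Visium library of wounded mouse distal colon. Visium places a tissue section over barcoded spots, and each spot counts the polyadenylated transcripts of the several cells above it as unique molecular identifiers (UMIs). The library came from Hgfac WT mice at day 2 after wounding, with 3 biological replicates per library, cut as 10 µm sections of fresh-frozen distal colon. Its bed spots were chosen by the measured UMIs of 4 genes, Arg1, Spp1, Plet1 and Krt14. Wound-bed spots held at least 3 UMIs of these genes together and at least 100 CPM of them (CPM, the counts of a gene scaled to a fixed library total). Distant spots lay 5 or more steps of the hexagonal grid from every bed spot. The rule found 28 bed and 357 distant spots, 385 of the 640 spots of the library and of the 1714 spots of the series, and the other 255 spots, 1 to 4 steps from the bed, were in neither set. The series also holds a library of Hgfac KO mice at day 2 after wounding and one of intact Hgfac WT colon, to which the same rule was applied and whose levels are given for comparison. No label ties a spot to an animal, so the WT wound library is 1 sample: no test was possible, no p-value is given, and brackets are exact 95% intervals that cover counting error only.

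A fresh wound of the colon fills with fibrin, monocytes, macrophages and activated fibroblasts, and surviving epithelium flattens and migrates over this bed from the edge. Arg1 (arginase 1) and Spp1 (osteopontin) are known from wound macrophages, Plet1 from migrating wound-edge epithelium, and Krt14 is a basal keratin of stratified epithelium. Intact colonic mucosa is built of absorptive colonocytes at the surface, mucus-making goblet cells, dividing crypt cells and antibody-secreting plasma cells, above a wall of smooth muscle and nerve plexus. Hgfac encodes a serine protease that turns the inactive precursor of hepatocyte growth factor (HGF) into the ligand of the receptor Met, which drives epithelial migration.

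The 4 genes that chose the bed are given as a description. Arg1 (GRCm38 chromosome 10, 24915207 to 24927470) had 91 UMIs in the library, 66 of them in the bed and 9 in distant spots. Spp1 had 151, 117 and 4, Plet1 73, 59 and 6, and Krt14 104, 71 and 8. These are few molecules, and the bed rests on them. A bed spot held 3 to 64 of these UMIs with a median of 6.5, and 3 spots held exactly 3, while 15 spots outside held 2 and 2 spots held 3 or more at no more than 85.4 CPM. The tissue formed 3 pieces, connected groups of at least 20 spots, with 12, 11 and 5 bed spots and 141, 56 and 160 distant spots in pieces 1, 2 and 3. The 4 genes were not spread evenly over them: 89 of the bed's Spp1 UMIs lay in piece 1, and 49 of its Plet1 UMIs lay in piece 3, 40 of them in 1 spot. Of the bed spots, 24 had another bed spot among their 6 neighbours, and the farthest spot of the library lay 14 steps away.

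**Figure D1:**
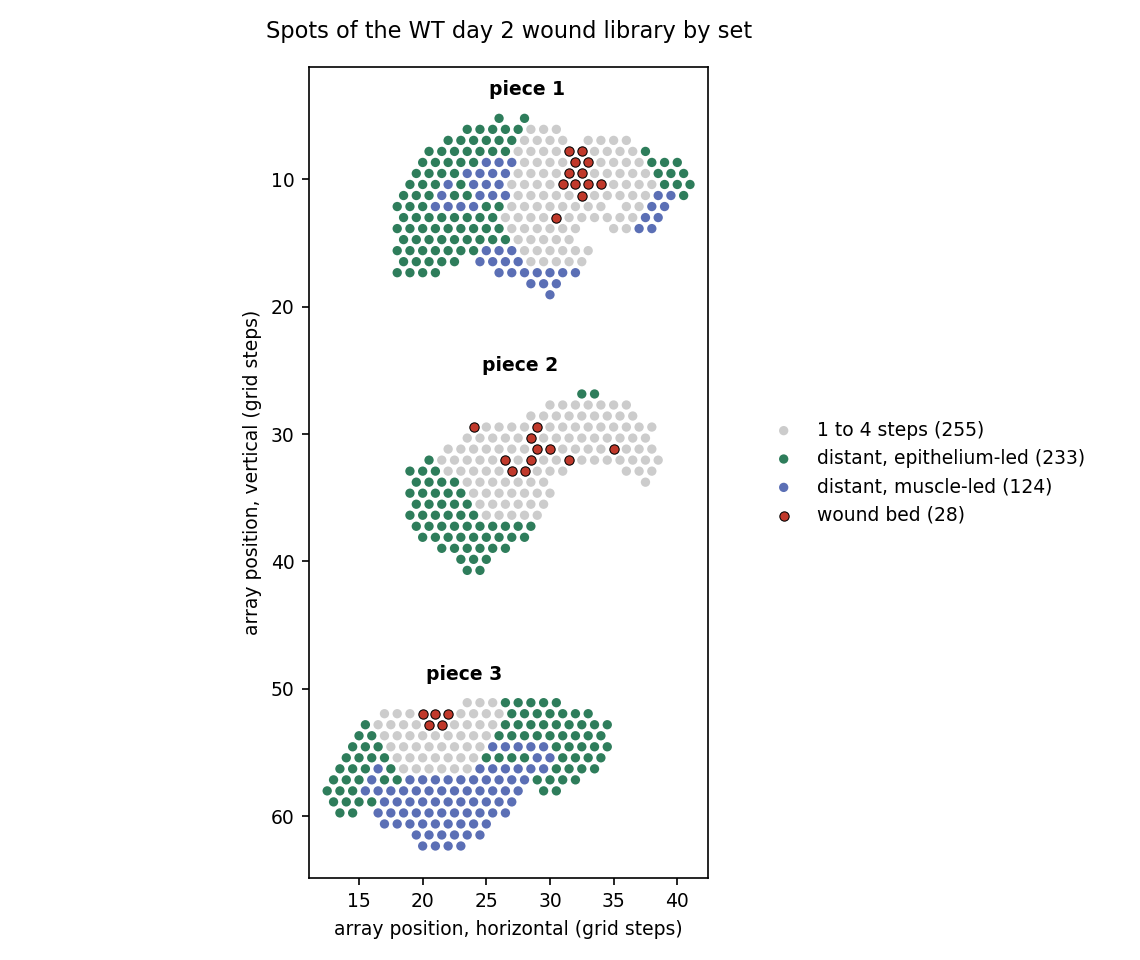
Spots of the WT day 2 wound library at their array positions (both axes in grid steps), coloured as wound bed, 1 to 4 steps away, distant and epithelium-led, or distant and muscle-led. The 28 bed spots form 7 patches, the largest of 11 spots in piece 1 and 4 of single spots, and in piece 2 all 56 distant spots are epithelium-led.

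The distant tissue was a mixture of mucosa and wall. A spot was called epithelium-led where 12 epithelial genes (Epcam, keratins, claudins and others) had at least as many UMIs as 12 smooth-muscle genes (Acta2, Myh11, Des and others), and muscle-led otherwise. By this rule 233 distant spots were epithelium-led, 65.3% [60.1 to 70.2], and 124 were muscle-led. The mixture differed between pieces, with 96 epithelium-led and 45 muscle-led distant spots in piece 1, 56 and 0 in piece 2, and 81 and 79 in piece 3, so that the share was 58.8% without piece 2 and 77.2% without piece 3. The bed had 16 epithelium-led and 12 muscle-led spots, 57.1% [37.2 to 75.5], an interval that counts spots and tests no difference of mix. In pieces 1, 2 and 3 the share was 41.7%, 54.5% and 100% in the bed and 68.1%, 100% and 50.6% in distant spots. It was thus lower in the bed of pieces 1 and 2 and higher in that of piece 3. Summed epithelial genes reached 19516 CPM in the bed and 20054 in distant spots, and summed muscle genes 6862 and 8661. The muscle ratio of 0.792 was 0.452 without piece 1 and 1.97 without piece 3. The lists lay within 2 times of each other in 43 distant and 7 bed spots, so the split is not sharp there. Genes are therefore given over all spots and, where it matters, within each kind of spot, and all muscle-led distant spots came from pieces 1 and 3.

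Over all pieces, bed spots held a median of 22025 UMIs and distant spots 14960, but the pieces differed in direction. Piece 1 had 11034 in the bed and 19291 in distant spots, piece 2 had 23001 and 19567, and piece 3 had 40399 and 11284. Mitochondrial genes took 3.05% of the bed UMIs and 6.67% of the distant ones. The bed summed to 629852 UMIs and the distant spots to 6280972, so 3 UMIs, the floor used for a count of 0, were 4.76 and 0.478 CPM. A CPM cannot tell fewer cells of a type in a spot from less RNA per cell. The capture grid is shared by all arrays, so 279 barcodes of the WT wound library recur in the KO wound library and 149 in WT intact as array positions, not as the same cells.

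Genes were compared where both sets together held at least 50 UMIs, leaving 9843 genes besides the 4 of the rule. A gene was called higher at a ratio of bed over distant CPM of at least 2, and lower at 0.5 or less. Of the 9843 genes, 995 (10.1%) were higher and 678 (6.89%) lower, and the median log2 ratio of all of them was 0.16. Each list count below is to be read beside these shares. With ratios centred on that median, 731 were higher and 885 lower, so which direction holds more genes depends on the scaling, and ratios near 1 have no settled side. Against both kinds of distant spot taken separately, 486 genes (4.94%) were at least 2 times higher and 247 (2.51%) at most 0.5 times as high. Compared within kind, bed with distant spots of the same lead, 459 genes (4.66%) were higher in both kinds and 306 (3.11%) lower in both. In 615 of the higher genes no bed piece was as low as any distant piece, and in 458 of the lower genes none was as high, where over all genes this held for 14.9% and 8.77%. The genes were called on these same pieces. Only 9.11% of the UMIs of the 2 sets lie in the bed, so a gene that is scarce in distant tissue passes the minimum only through its bed UMIs, and such a gene had to differ.

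Epithelial genes of repair were higher in the bed. The epithelial genes Plet1 and Krt14 helped to choose it, so part of such a difference comes with the choice. Of the 20 genes of a list of regenerating epithelium, 16 could be compared and 14 were higher and 0 lower, with a median log2 ratio of 2.28 beside 0.16 over all genes, and 13 of them were higher than both kinds of distant spot. Their summed level was 8266, 3493 and 10667 CPM in the bed spots of pieces 1, 2 and 3, and 1801, 2074 and 1866 CPM in the distant spots of the same pieces, a ratio of 3.80 [3.67 to 3.93]. All 3 bed pieces were above all distant pieces, although piece 2 was the lowest of them. The list ratio was 4.38 within epithelium-led and 1.57 within muscle-led spots. In the knockout wound the same rule gave a list ratio of 2.62.

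Clu, a secreted chaperone known from injured intestinal crypts, was at 2398, 1126 and 456 CPM in the bed of pieces 1, 2 and 3 and at 31.4, 16.8 and 211 in distant tissue. UMIs of it were found on 27 of the 28 bed spots, but 4 spots held 208, 137, 123 and 113 of the 838, 3 of them in piece 1 and 1 in piece 2. Its ratio was 14.1 [12.7 to 15.7], 6.0 without piece 1 and 64.6 without piece 3, whose distant tissue held the most Clu. Clu was 21.1 times higher within epithelium-led spots and 1.48 times within muscle-led ones. Lama3, which encodes a laminin chain of epithelial basement membrane, was 8.49 [6.89 to 10.5] times higher. It was not higher in piece 2, at 37.4 CPM in the bed against 63.4, and without that piece the ratio was 17.9. Without piece 3 the ratio of Lama3 was 4.89. The tight-junction gene Cldn4 had the same pattern, with 489, 16.6 and 753 CPM in the bed against 38.7, 56.1 and 23.9, a ratio of 10.4 [8.69 to 12.6], which was 19.4 without piece 2 and 5.17 without piece 3.

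Other genes with large ratios are less known from wounds. Cwh43, whose yeast counterpart remodels the lipid of membrane anchors, was at 259, 16.6 and 217 CPM in the bed and 3.45, 2.19 and 3.48 in distant tissue, a ratio of 48.4 [29.7 to 82.7]. Aldh1a3, an enzyme of retinoic acid synthesis, was 34.1 [25.3 to 46.7] times higher, and 21.8 times without piece 1. Clca4b, of a family of chloride-channel regulators, was 17.8 [13.8 to 23.2] times higher, and its bed level ran from 91.4 CPM in piece 2 to 515 in piece 3. All 3 bed pieces were above every distant piece for these genes. Within muscle-led spots Cwh43 had no UMI in the bed, while Aldh1a3 was 4.18 and Clca4b 2.89 times higher there. Emp1, an epithelial membrane protein, was at 533, 245 and 1692 CPM against 71.3, 86.8 and 89.1. A single spot of piece 3, which also held 40 of the Plet1 UMIs, carried 204 of the 485 Emp1 UMIs, so that the ratio of 9.48 [8.36 to 10.8] was 5.87 without that spot and 4.91 without the piece.

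Genes of connective tissue formed a second group. Of 16 collagen and matrix genes, all could be compared and 14 were higher and 0 lower, with a median log2 ratio of 1.88 beside 0.16 over all genes. The list summed to 18123, 18504 and 3443 CPM in the bed of pieces 1, 2 and 3 and to 4760.3, 1449 and 4596 in distant tissue. The bed of pieces 1 and 2 was high and the bed of piece 3 lay below its own distant tissue, so the groups overlap. The piece 3 bed had 0 muscle-led spots and its distant tissue 79, so these differ in mix. The ratio was 3.49 [3.40 to 3.57] over all spots, 3.08 within epithelium-led and 3.29 within muscle-led spots. Col1a1, the main fibrillar collagen chain, showed the same split, with 4108, 2849 and 387 CPM in the bed against 471, 108 and 399. UMIs of Col1a1 were found on 28 of 28 bed spots, and its ratio was 6.88 [6.45 to 7.34]. Mgp, an inhibitor of calcification on the same list, was not higher, at 0.632 [0.554 to 0.718], and was named after its value was seen.

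Lox, lysyl oxidase, which cross-links collagen, was at 309, 249 and 47.7 CPM in the bed of the 3 pieces and at 6.13, 2.92 and 5.65 in distant tissue. Every bed piece was above every distant piece, and 23 of the 28 bed spots held Lox UMIs. The ratio was 39.6 [26.9 to 59.9] over all spots, 26.3 within epithelium-led spots and 95.6 within muscle-led ones. Loxl2, a related enzyme, was 8.42 [6.61 to 10.7] times higher, again in every piece and within both kinds of spot, at 7.47 and 9.32 times. Col5a3, a minor fibrillar collagen chain, was at 194, 133 and 79.6 CPM in the bed against 13.0, 2.92 and 14.8, a ratio of 11.9 [8.61 to 16.5]. Timp1, an inhibitor of matrix metalloproteinases, was at 409, 253 and 31.8 CPM against 15.7, 5.10 and 28.3, so that piece 3 hardly differed. Its ratio was 13.1 [10.2 to 16.9], 7.96 without piece 1 and 26.9 without piece 3.

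Genes of signalling and of fibrin turnover were higher in part, where 10.1% of all genes were higher and 6.89% lower. Of 10 compared genes of the TGF-beta and activin list, 5 were higher and 0 lower, among them the matricellular genes Ccn2 at 4.75 [3.75 to 5.98] and Ccn1 at 4.83 [3.34 to 6.91]. The Ccn1 ratio was 3.19 without piece 2 and 14.8 without piece 3, where bed and distant tissue had 31.8 and 31.3 CPM. Of 7 compared genes of the plasminogen system, which dissolves fibrin, 5 were higher and 0 lower. F3, tissue factor, which starts clotting, was 4.94 [4.19 to 5.82] times higher, and 7.65 times without piece 2. Anxa2, a cell-surface receptor for plasminogen and its activator, was at 2812, 1246 and 2615 CPM in the bed against 723, 769 and 632, a ratio of 3.08 [2.90 to 3.27] with no overlap of the pieces. Of 14 compared early-response and ERK target genes, 8 were higher and 0 lower, with Egr1 at 4.34 [2.87 to 6.46] and Phlda1 at 3.78 [2.70 to 5.21]. With spots thinned to 5000 UMIs Phlda1 was at 1.92, which ends the call. Of the Egr1 bed level, 143 CPM was reached in piece 3, and 15 and 29.1 in pieces 1 and 2. For comparison, fibroblast genes as a list were not higher, at 0.960 [0.908 to 1.01] and 1.46 without piece 3, with 2 of 10 higher and 1 lower. Of 8 compared activated fibroblast genes 4 were higher and 0 lower, with a list ratio of 1.51 [1.45 to 1.58]. It was 1.0 without piece 1 and 3.05 without piece 3, and 2.87 within epithelium-led and 0.873 within muscle-led spots. Acta2 is on both this list and the smooth-muscle list, so the sum also carries muscle. In the distant tissue of pieces 2 and 3 the activated fibroblast list was at 365 and 3640 CPM, beside 678 and 15359 of the muscle list.

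**Figure D2:**
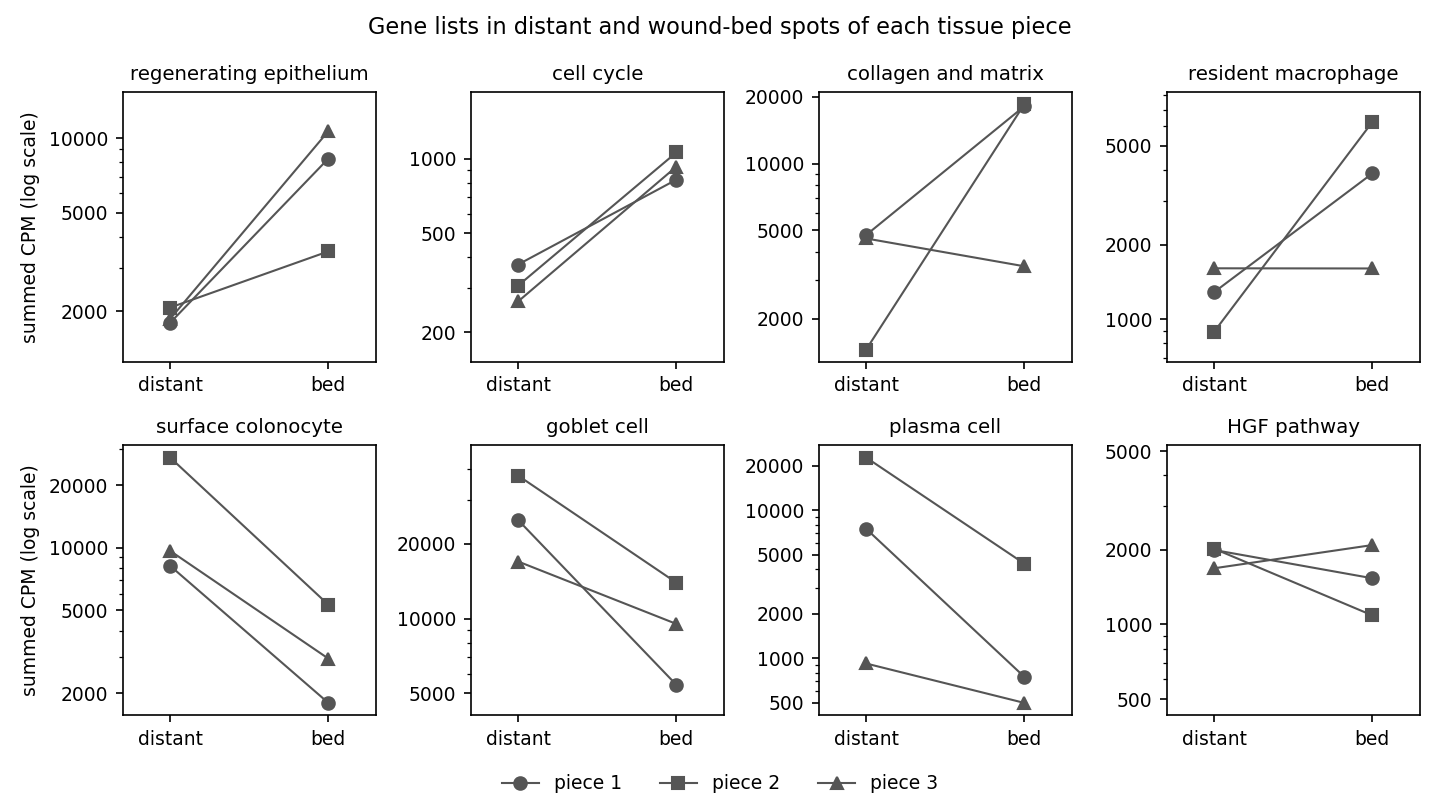
Summed CPM (log scale) of 8 gene lists in the distant and the bed spots of each tissue piece, with 1 line per piece. The lists of regenerating epithelium and cell cycle are higher in the bed of all 3 pieces, while the collagen and matrix list is at 4760.3 and 1449 CPM in distant tissue and at 18123 and 18504 in the bed of pieces 1 and 2, and is lower in the bed of piece 3.

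The resident macrophage list was higher in the bed of pieces 1 and 2 and not of piece 3. Arg1 and Spp1, known from wound macrophages, helped to choose the bed, so part of a macrophage excess comes with the choice. Of 14 genes of the resident macrophage list 10 were higher and 2 lower, with summed levels of 3869, 6234 and 1602 CPM in the bed and 1285, 889.6 and 1604 in distant tissue. The ratio of 3.11 [2.98 to 3.25] was 1.93 without piece 2, and in piece 3 bed and distant tissue were level. Apoe, a lipid carrier abundant in macrophages, was at 2508, 2654 and 705 CPM against 525, 299.7 and 708, a ratio of 3.73 [3.50 to 3.98] and 5.79 without piece 3. Cd68, a lysosomal protein of phagocytes, was 3.90 [2.93 to 5.15] times higher, 2.05 times without piece 2, and 7.80 times within muscle-led spots. The haemoglobin scavenger receptor gene Cd163 had 2 bed and 64 distant UMIs, a ratio of 0.312 [0.0369 to 1.17], and Lyve1, a hyaluronan receptor of resident macrophages and lymphatic vessels, 6 and 124. With a bed drawn by Plet1 and Krt14 alone Apoe was at 1.32 and Cd68 at 1.14, below the 2-fold rule. Ccr2, the receptor that brings monocytes from blood, was at 169.5, 99.7 and 101 CPM in the bed against 8.43, 3.65 and 30.9, above distant tissue in every piece. Its ratio was 7.84 [5.74 to 10.7], 4.84 without piece 1 and 19.4 without piece 3. Of the 13 compared genes of the monocyte and wound macrophage list 7 were higher and 0 lower, but the ratio of the whole list of 18 genes was 1.25 [1.21 to 1.28], piece 2 had 7069 CPM in the bed against 7281, and the KO ratio was 0.940. Thbs1, thrombospondin 1, was at 7.14 [5.27 to 9.63].

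Of 9 compared cytokine and chemokine genes 5 were higher and 0 lower, beside 10.1% and 6.89% of all genes. Ccl9, a myeloid chemokine of the mouse, was 6.04 [4.41 to 8.21] times higher, and 3.19 times without piece 2 or 1.43 with a bed by Plet1 and Krt14 alone, and Cxcl16 was 3.95 [2.89 to 5.35] times higher with no overlap of the pieces. The complement receptors C3ar1 and C5ar1 were 8.36 [5.67 to 12.3] and 4.86 [3.23 to 7.21] times higher, C3ar1 5.52 times without piece 2 and 13.1 times without piece 3. Neutrophil genes were mostly too few to compare. S100a8 and S100a9, abundant calcium-binding proteins of neutrophils, had 22 and 30 UMIs in the bed and 3 each in the distant spots, and Cxcl2 had 0 in both. Only 2 of the 14 neutrophil genes passed the minimum, Ly6g and Cd177, and both were lower, Ly6g at 0.370 [0.302 to 0.450], or 0.222 without piece 3, and Cd177 at 0.338 [0.144 to 0.677], or 0.624 without piece 1, which ends the call. Ly6g was at 542 CPM in epithelium-led and 80.2 in muscle-led distant spots, and the 3 distant UMIs of S100a8 are too few to compare with that. The whole neutrophil list was at 495 CPM in distant spots and 323 in intact WT colon, with a ratio of 0.674 [0.583 to 0.775]. Ly6g made up most of that distant level, so the list ratio mainly follows 1 gene. S100a8 and S100a9 went the other way on few UMIs, so the list gives no level of neutrophils. The list ratio was 0.545 within epithelium-led and 2.77 within muscle-led spots, and 1.73 in KO. Other genes below the minimum were the fibroblast gene Cthrc1 with 36 bed and 6 distant UMIs, Inhba with 28 and 20, Ltbp2 with 25 and 2, Il1b with 32 and 12, 30 of the bed UMIs in piece 3, and Cxcl3 with 10 and 0, at least 33.2-fold higher against the floor. These genes below the minimum were named after their values were seen.

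Genes of dividing cells were higher in the bed of every piece. Of 13 compared cell-cycle genes 11 were higher, all 11 also against both kinds of distant spot, and 0 were lower, with a median log2 ratio of 1.66. The list summed to 823, 1059 and 928 CPM in the bed and 374, 308 and 266 in distant tissue, a ratio of 2.95 [2.69 to 3.24]. It was 3.02 within epithelium-led and 2.80 within muscle-led spots. In intact WT colon the list was at 776 CPM, against 945 over the whole bed and 320 over distant tissue. The ratio of 2.95 is thus to distant tissue of a wounded colon and not to an unwounded level. Cdk1, the kinase of mitotic entry, was at 64.8, 95.5 and 95.5 CPM against 19.5, 15.3 and 14.3, and its ratio was 5.13 [3.62 to 7.19]. Birc5, survivin, was 4.94 [3.47 to 6.95] times higher. The list of crypt stem and progenitor cells had 2 higher and 0 lower of 7 compared genes, beside the 10.1% of all genes that were higher, and a summed ratio of 1.65 [1.45 to 1.86], 2.17 in KO. The higher genes were Cd44, a hyaluronan receptor that many activated cells make, at 6.84 [5.37 to 8.68] and Ephb2, a receptor of crypt-base cells, at 2.60 [1.75 to 3.78]. With every spot thinned to 5000 UMIs Ephb2 was at 0.269. Lgr5, the marker of crypt stem cells, had 3 bed and 29 distant UMIs, a ratio of 1.03 [0.201 to 3.33].

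Genes of mature mucosa were lower in the bed. Of 9 compared surface colonocyte genes 7 were lower and 0 higher, with a median log2 ratio of -2.18. Their sum was 1795, 5329 and 2933 CPM in the bed and 8202, 27250.3 and 9685 in distant tissue, so every bed piece was below every distant piece, and the ratio was 0.270 [0.259 to 0.282]. Slc26a3, the chloride and bicarbonate exchanger of absorptive cells, was at 44.9, 74.8 and 53.0 CPM against 400.0, 1419 and 517, a ratio of 0.0883 [0.0621 to 0.122]. The water channel Aqp8 was at 34.9, 170.3 and 15.9 CPM against 384, 1469 and 432. Of its 51 bed UMIs 35 lay in 1 spot, and its ratio of 0.127 [0.0942 to 0.167] was 0.0411 without that spot and 0.0632 without piece 2. Car2, a carbonic anhydrase, was nearly equal in the bed of the 3 pieces, at 219, 241 and 292 CPM against 1614, 1550.2 and 1607, and its ratio was 0.156 [0.132 to 0.183]. The oxidase genes Selenbp1 and Hao2, the pentraxin Mptx1 and the kallikrein Klk1 lay between 0.0937 and 0.160 times the distant level, with the pieces apart for each, and Hao2 was at 0.0590 without piece 2.

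The lower levels were seen within the mucosa. Within epithelium-led spots Slc26a3 was at 0.0717 [0.0472 to 0.104] times the distant level and Car2 at 0.136 [0.113 to 0.163]. Within muscle-led spots, where both genes are scarce, the ratios were 0.703 [0.328 to 1.34] and 0.437 [0.308 to 0.604]. In the general epithelial list 1 of 12 genes was higher and 0 lower, not above the 10.1% and 6.89% of all genes. That gene, the keratin Krt18, was at 2.02 [1.81 to 2.25] and at 1.17 without piece 3, which ends the call. Saa1, an acute-phase gene of colonic epithelium, was at 698, 2804 and 642 CPM in the bed against 3048, 13247 and 5242, a ratio of 0.244 [0.229 to 0.261], and 0.163 without the bed spot that held most of it. Of the 3 compared acute-phase genes Saa1 was lower and the other 2 higher, with Serpina3n, a protease inhibitor, at 2.34 [1.80 to 3.00], 1.27 without piece 2 and 4.51 without piece 3.

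Of 10 goblet-cell genes 5 were lower and 0 higher, beside 6.89% and 10.1% of all genes, and the list ratio was 0.399 [0.389 to 0.409]. Zg16, a lectin of the mucus layer, was at 788, 3713 and 748 CPM in the bed against 7636, 15751 and 5094, and its ratio of 0.223 [0.211 to 0.237] was 0.119 without piece 2. Clca1, a mucus-processing protease, was at 0.263 [0.238 to 0.290] of the distant level. Muc2, the gel-forming mucin, was at 0.462 [0.422 to 0.505]. Plasma-cell genes were lower as well, 9 of 10 compared, with 0 higher and a list ratio of 0.244 [0.231 to 0.258]. That ratio was 0.142 without piece 2 and 0.112 without the bed spot richest in these genes, and the distant level ran from 921 CPM in piece 3 to 22689 in piece 2. The antibody genes Iglc2 and Ighg2b were among the lowest, at 0.0347 [0.00943 to 0.0891] and 0.0190 [0.000479 to 0.106], on uneven ground: Iglc2 was at 16.9, 775 and 18.7 CPM in the distant spots of pieces 1, 2 and 3 and Ighg2b at 195, 10.2 and 1.74. Without piece 2 the Iglc2 ratio was 0.145, and without piece 1 that of Ighg2b was 0.475, which rests on 1 bed UMI.

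Pcp4, a calmodulin-binding protein of muscle and nerve, had 0 bed and 326 distant UMIs. It was at least 10.9-fold lower against the floor of 3 UMIs over the bed, and 245 CPM of it was found in muscle-led and 4.17 in epithelium-led distant spots. The muscle-led bed spots were unlike the muscle-led distant spots in other ways. Their summed smooth-muscle genes were at 0.548 [0.530 to 0.568] of the level in muscle-led distant spots. Within epithelium-led spots that ratio was 1.40, so comparing within kind does not make the tissue mix equal. The enteric nerve genes Uchl1 and Vip were at 24.4 and 24.4 CPM in muscle-led bed spots and 280.0 and 215 in muscle-led distant spots. Over all spots Uchl1 was at 0.238 [0.108 to 0.457] and Vip at 0.167 [0.0539 to 0.395], but with the bed drawn at 2 UMIs and 50 CPM they were at 1.59 and 10.7. Collagen Col1a1 was at 5389 against 832 CPM there. Of 12 smooth-muscle genes 1 was lower, near the 6.89% of all genes. That gene was Synpo2, which piece 3 decides: it was at 0.407 [0.239 to 0.651] over all spots, 0.204 without piece 1 and 1.06 without piece 3.

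**Figure D3:**
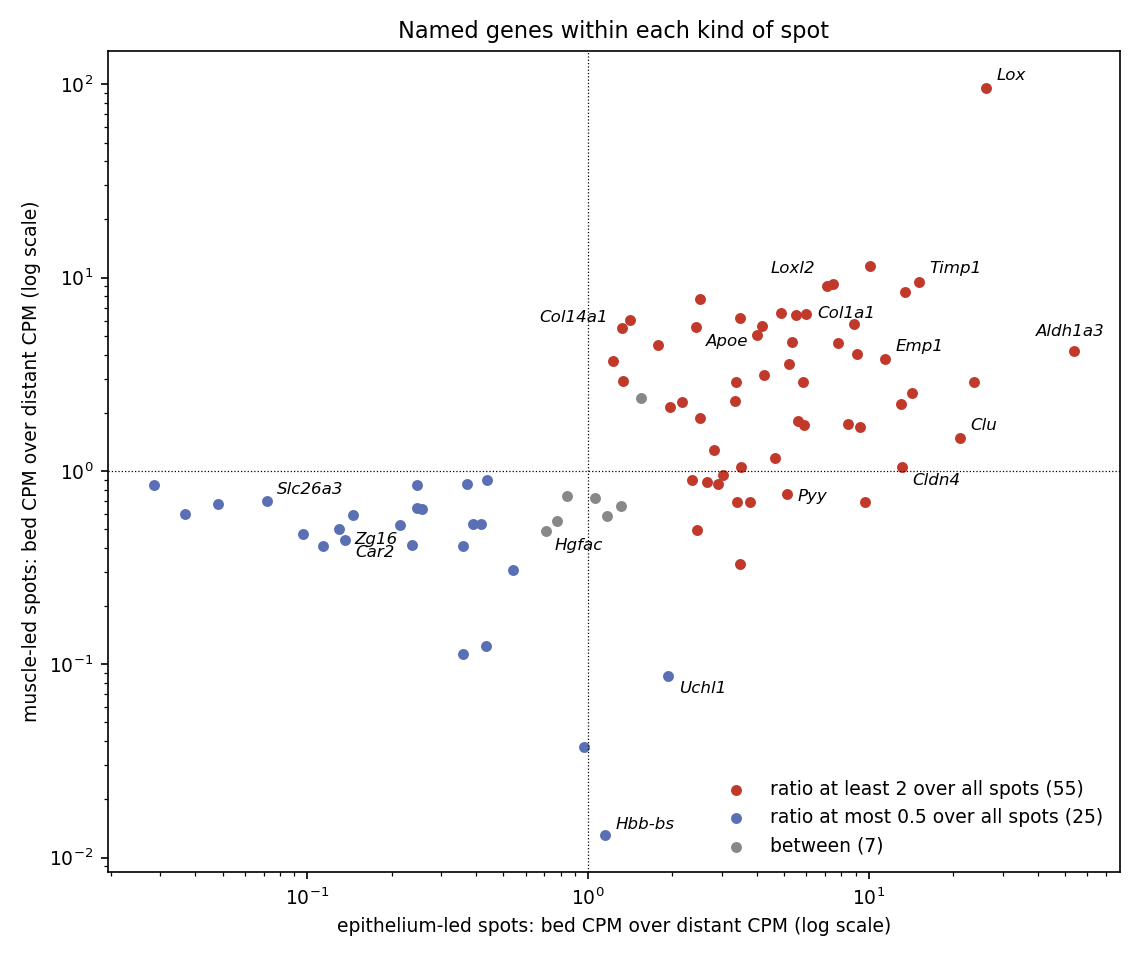
Ratio of bed over distant CPM within epithelium-led spots (horizontal, log scale) against that within muscle-led spots (vertical, log scale), for the 87 named genes with UMIs in all 4 sets. Of the 55 genes higher over all spots, 55 were above 1 within epithelium-led and 45 within muscle-led spots, and 29 were at least 2 times higher in both. The genes were named by ratios of these same spots, so the counts describe that choice. Over all 9843 genes compared, 459 (4.66%) were at least 2 times higher within both kinds. Lox lies high on both axes and Cldn4 and Clu on the horizontal axis.

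The HGF pathway was compared because the mice of the series differ in Hgfac. Of the 7 pathway genes that could be compared 0 were higher and 0 lower by the 2-fold rule, where 10.1% and 6.89% of all genes were. At those shares 7 genes can easily hold 0 of either, so the counts do not set the pathway apart. Its ratios lay close enough to 1 for the scaling to matter. Hgfac (GRCm38 chromosome 5, 35041509 to 35048461) was at 94.7, 37.4 and 74.3 CPM in the bed of pieces 1, 2 and 3 and 117, 94.8 and 90.4 in distant tissue. Piece 2 had the lowest bed level and the pieces overlapped, with a ratio of 0.651 [0.465 to 0.890]. Met, the HGF receptor, was at 42.9 CPM in the bed and 26.4 in distant tissue, a ratio of 1.62 [1.04 to 2.45], and at 2.04 without piece 2, past the 2-fold rule. Hgf itself had 1 bed and 8 distant UMIs, too few for a level. Spint2 and Spint1, membrane-bound inhibitors of HGF-activating proteases, were at 0.717 [0.649 to 0.790] and 0.974 [0.817 to 1.15]. Spint2 was the one of the pair with every bed piece below every distant piece, at 733, 540.0 and 843 CPM against 1064, 964 and 857. Among other proteases that can activate the HGF precursor, St14 (matriptase) was at 1.16 [0.922 to 1.46] and Tmprss2 at 0.790 [0.678 to 0.915], the latter 0.503 without piece 3. Mst1r, the receptor of the related ligand Mst1, was at 1.04 [0.647 to 1.60]. Plau, urokinase, had 7 bed and 26 distant UMIs, Hpn 1 and 39, Mst1 and Klkb1 0 and 1 each, and F12 0 in both.

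Levels were then followed outward from the bed in rings of grid steps. The rings at 0, 1, 2, 3 to 4, 5 to 6, 7 to 9 and 10 or more steps held 28, 62, 65, 128, 117, 146 and 94 spots. The collagen and matrix list was lower in each ring outward, from 13875 CPM in the bed to 9498, 8971, 6253, 4724, 3900.1 and 3351. Regenerating epithelium differed most at the bed itself, from 7160.4 CPM to 2856 after 1 step and 2165 after 2, and lay between 1784 and 2043 beyond. Cell-cycle genes went from 945 to 754, 685 and 489 CPM and stood at 319.6, 320.3 and 320.0 in the outer rings. Bed level here includes the choice of the spots, so the step from 0 to 1 is not comparable with the later ones.

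Single genes differed in their course over the rings. Lox was at 208 CPM in the bed and 29.6 at 1 step, and at 13.7 at 2 steps. Cldn4 was at 387 CPM in the bed and at 27.2 at 1 step, no higher than in the outer rings. Clu reached farther, with 1330.5, 574, 255, 255 and 194 CPM out to 5 to 6 steps and 43.7 at 10 or more. Colonocyte and goblet genes differed in how far from the bed they were low. The surface colonocyte list was at 3487 CPM in the bed and 8464, 7037 and 8735 in the next rings. It was at 12469.6 at 5 to 6 steps, 14512 at 7 to 9 and 11353 at 10 or more. The goblet list was at 9912 in the bed and already at 22391 after 1 step, against 26880.1 at 5 to 6 steps. The ring next to the bed was the richest in smooth-muscle genes, 17767 CPM against 6862 in the bed, and in enteric nerve genes, 1131 against 111, so the rings also differ in tissue mix.

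**Figure D4:**
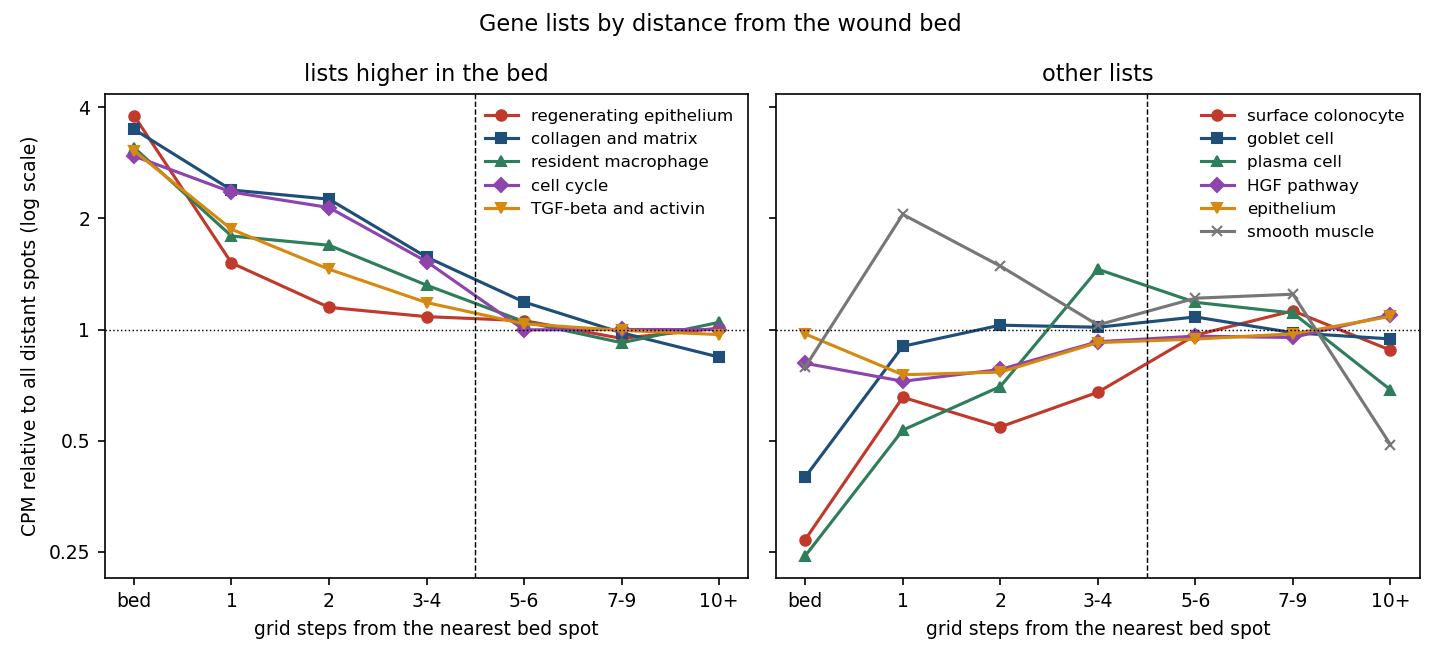
Summed CPM of gene lists in rings of grid steps from the nearest bed spot, divided by the level over all distant spots (log scale), with distant spots to the right of the dashed line. Lists higher in the bed approach 1 by 5 to 6 steps. The surface colonocyte list is lowest out to 3 to 4 steps and lies on both sides of 1 beyond. It is at 12470, 14512 and 11353 CPM in the 3 outer rings, against 12904 over all distant spots. The goblet list is at 22391 CPM in the first ring, against 24834 over all distant spots.

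The name wound bed covers more than one kind of tissue. Of the 28 bed spots, 17 met the rule with Arg1 and Spp1 alone, 4 with Plet1 and Krt14 alone, 4 with each pair and 3 only with the 4 genes summed. The 17 spots held 22806 CPM of the collagen and matrix list and 7019 of the resident macrophage list, against 6022 and 1433 in the 4 spots. The 4 spots held 8422 CPM of the regenerating epithelium list and 33131 of the epithelial list, against 2649 and 8645 in the 17. Median depth also differed, with 13320 UMIs in the 17 spots and 34144 in the 4. In piece 3 all 5 bed spots were epithelium-led, with 23596 to 44104 UMIs, and over the 5 neither the matrix nor the resident macrophage list was above the distant level. Of the 5 spots 1 was above the distant median of its piece for the matrix list and 2 for the resident macrophage list. Lox, Col5a3 and Ccr2 were higher in the bed of piece 3 all the same, and all 5 spots held Arg1 UMIs. The distant tissue of piece 3 had 81 epithelium-led and 79 muscle-led spots, so its mix differs from that of these 5 spots. Set beside that mixture, the 2 lists go against the name wound bed for most of the 5, while single stromal genes do not. Levels of the 2 lists in the epithelium-led distant spots of piece 3 alone were not compared. Of the markers of stratified epithelium, Krt5, Krt4, Trp63 and Sprr3 had 0 UMIs in the bed, and Krt13 had 15 there and 4 in distant tissue. The list of 12 such genes had a summed ratio of 2.56 [2.18 to 2.99], or 1.52 without piece 3. Only 1 of them, Sfn, could be compared. Sfn was at 2.34, and at 1.33 without piece 3, which ends the call.

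Enteroendocrine genes were uneven in the bed. Pyy, the hormone peptide YY, was at 1526, 627 and 700.2 CPM in the bed of the pieces and 267, 233 and 194 in distant tissue, a ratio of 4.01 [3.64 to 4.42]. Of its 589 bed UMIs 259 lay in 1 spot and 126 in another, and without the first the ratio was 2.38. The list ratio of 2.60 was 1.76 without its highest spot. In the knockout wound Pyy was at 0.859 and the list at 0.715.

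The KO wound library, which played no part in choosing the 28 spots, was divided by the same rule into 56 bed and 212 distant spots, and in the intact WT library 1 spot met the rule, with 3 Spp1 UMIs. Genotype and capture area cannot be told apart, so the KO library serves here as a second wound and not as a test of Hgfac. The same 4 genes drew its bed, so genes that share spots with them can recur through the choice. There 1397 of 8725 compared genes were higher (16.0%) and 673 lower (7.71%). Of the 834 genes higher in the WT bed and compared in both, 613 were also at least 2 times higher in the KO bed, 73.5% of them and 45.3% of the KO higher genes, where 15.6% of all 8659 shared genes were that high. Of 517 lower genes 316 were at most 0.5 in KO, 61.1% of them and 47.5% of the KO lower genes, beside 7.68% of all. Only 4 WT higher genes were at most 0.5 in KO and 6 WT lower genes at least 2. The distant tissue of the KO library was 92.0% epithelium-led [87.5 to 95.3], above the WT share, so its ratios are against a different mix.

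The genes that lead the WT comparison had the same direction in the KO wound. Lox was 47.1 [27.3 to 87.8] times higher in the KO bed, Timp1 34.0 [25.2 to 46.8] and Col1a1 6.32 [5.86 to 6.81]. Clu was 37.9 and Cwh43 19.1 times higher, and Slc26a3 was at 0.0373 and Zg16 at 0.145 of the distant level. Differences between the WT and KO ratios were not tested. Intact colon gives a level without a wound: Lox was at 2.93 CPM there, Clu at 38.1, Timp1 at 6.97 and Col1a1 at 217, against 5.25, 94.1, 18 and 365 in the distant tissue of the WT wound.

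**Figure D5:**
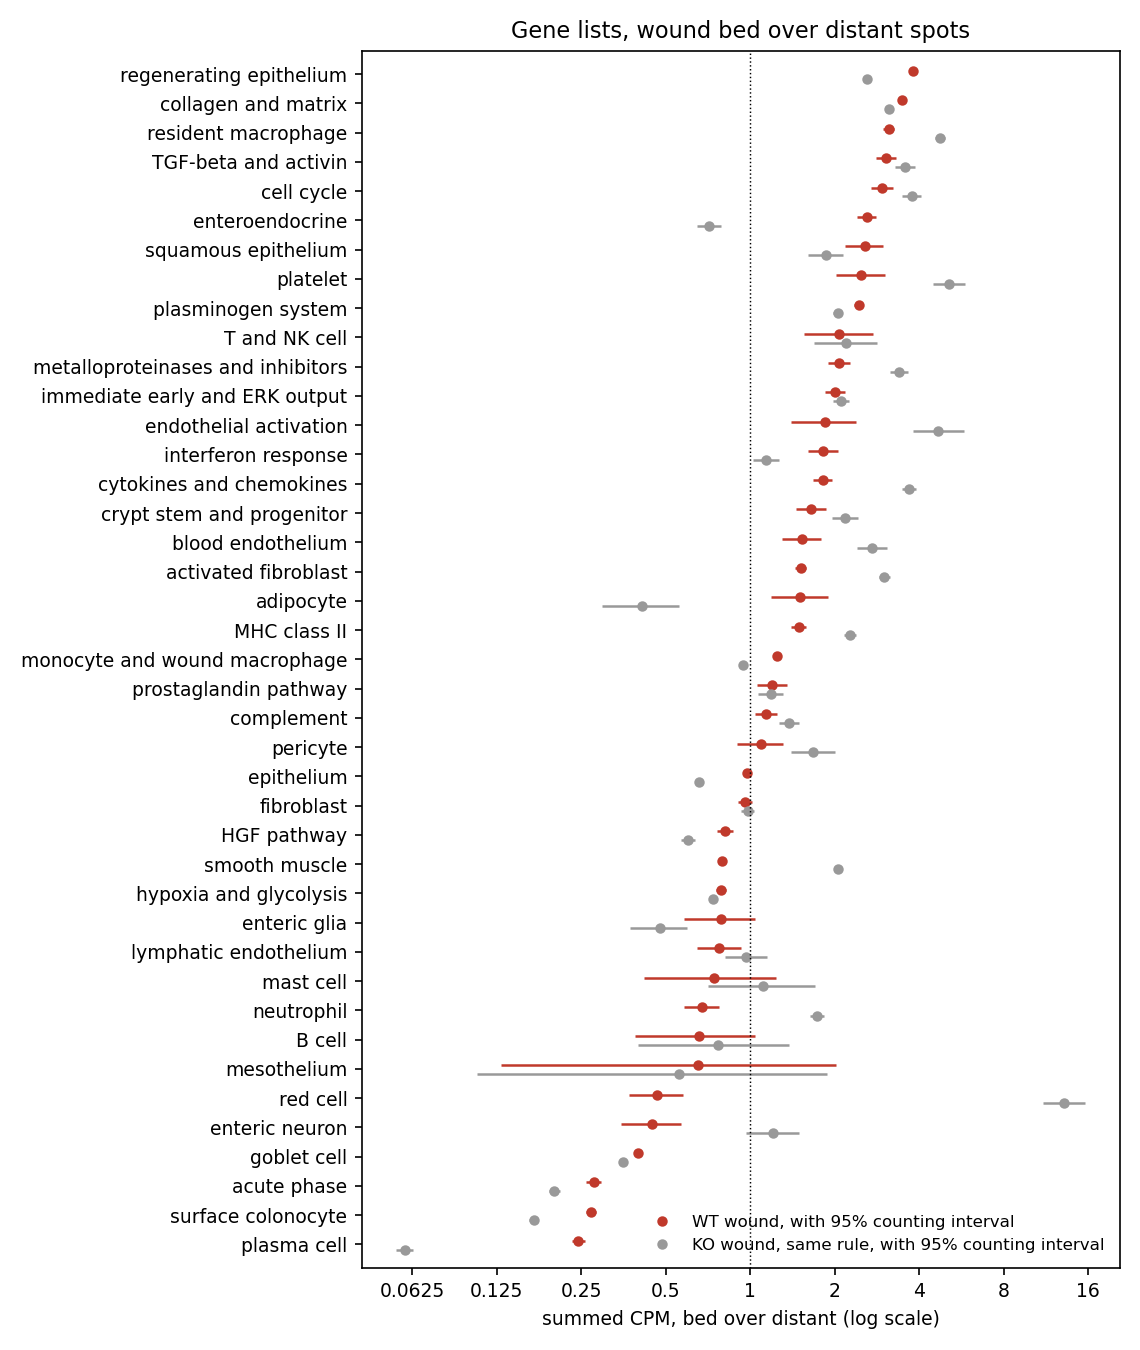
Summed CPM of the bed over that of distant spots (log scale) for 41 gene lists, in the WT wound and, by the same rule, in the KO wound, with exact 95% intervals for counting error. Regenerating epithelium, collagen and matrix, and resident macrophage lists lie at the top in WT, and plasma cell and surface colonocyte lists at the bottom, and the enteroendocrine list lies at 2.60 in WT and 0.715 in KO.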

How the data were processed

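Polyadenylated RNA was measured by Visium in 3 libraries of mouse distal colon, of which the WT day 2 wound library carries the comparison. The authors deposited raw UMI counts per gene and spot, made with Space Ranger 1.2.1 per the file headers and with the mm10 build per the submitters' processing notes. The annotation release was not given in the sources used here. Deposited position tables hold other values, a tissue flag and the array row and column, from which grid steps were counted. Only spots over tissue were in the count matrices, none was removed, and no doublet caller was run, since a spot can hold several cells.

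Counts were summed over the bed and over the distant spots and divided by each set's total, giving CPM, and the ratio of bed over distant CPM was given an exact conditional binomial 95% interval. Genes were called from 50 UMIs over both sets, higher at 2 and lower at 0.5. The calculation was tested on simulated data. Totals were 11306771 UMIs in the WT wound library, 8930574 in the KO wound library and 8180099 in WT intact, and 3 UMIs in the bed are 4.76 CPM. Python 3.11.15, numpy 2.4.6, scipy 1.17.1, pandas 2.3.3 and matplotlib 3.10.9 were used. Gene coordinates come from the RefSeq table of GRCm38, the assembly that mm10 names.

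Named genes needed 100 UMIs over both sets and were ranked by the interval bound nearest to 1: the first 15 higher, the first 10 lower, the first 10 higher than both kinds of distant tissue, at most 2 higher and 2 lower from every list, and the HGF pathway list in full, 97 genes in total, of which a selection is given. Mitochondrial, ribosomal protein, immunoglobulin variable and unnamed genes were left out of that ranking. Mgp, Muc2, Cd163, Lgr5 and the genes given by UMIs alone were named outside it, after their values were seen. The members, the gene lists and the rule were chosen with earlier results of these data known. Alternatives changed the bed and distance thresholds, the genes of the rule, isolated spots, scaling, weighting, depth, the minimum count, the split by kind and the tissue pieces. One named gene is not reported here.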

Additional observations from a re-analysis of the deposited data

Results flagged for a closer look

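Haemoglobin genes lay on opposite sides of 1 in the 2 wound libraries. Hbb-bs was at 0.457 in the WT bed over distant tissue and at 11.8 in the KO bed, and Hba-a1 at 0.456 and 16.3. Without piece 3 the WT ratios were 3.01 and 3.49. Synpo2, an actin-binding protein of muscle, was at 0.407 in WT, or 1.06 without piece 3, and at 3.18 in KO. These differences between libraries were not tested, and each library is 1 sample.

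In the KO wound library, which was not used to choose the bed, 56 of its spots met the bed rule, against 28 in the WT wound and 1 in intact WT colon. The number was not tested either, and the libraries hold 572, 640 and 502 spots.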

How the results depend on the processing

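Bed and distant spots come from the same library and were set side by side per piece. No paired test was run, because the labels number no replicates and tie no piece to an animal. The number of genes higher in the bed, 995, was 476 with every spot thinned to 5000 UMIs, 1502 at a minimum of 20 UMIs and 278 at 200, and between 729 and 1100 with a tissue piece left out. The number lower, 678, was 447 with the bed drawn at 2 UMIs and 50 CPM, 1712 with a bed by Plet1 and Krt14 alone, 1139 at 20 UMIs and 297 at 200, and 637 to 882 without a piece. The number higher than both kinds of distant tissue, 486, was 237 thinned, 780 at 20 UMIs and 133 at 200, and 364 to 470 without a piece. The number lower than both, 247, was 474 with the bed at 5 UMIs and 200 CPM, 107 at 2 UMIs and 50 CPM, 403 by Arg1 and Spp1, 1048 by Plet1 and Krt14, 161 with distant spots from 8 steps, 535 at 20 UMIs and 60 at 200. It was 215 to 430 without a piece, and 85 where the interval also had to lie beyond 1. The epithelium-led share of distant spots, 65.3%, was 59.5% by Plet1 and Krt14, 72.4% from 8 steps and 58.8% to 77.2% without a piece.

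With a bed by Plet1 and Krt14 these genes lay on the other side of 1: Col14a1 at 0.542, Mfap5 at 0.854, Pf4 at 0.785, Ptgs1 at 0.966, Serpina3n at 0.928, H2-DMa at 0.904 and P4ha1 at 0.987. With a piece or the richest bed spot left out, Mfap5 ranged from 0.829 to 4.89, Hbb-bs from 0.308 to 3.01, Hba-a1 from 0.193 to 3.49, Synpo2 from 0.204 to 1.06, Ccl21a from 0.142 to 1.23 and the red cell list from 0.277 to 2.89. Thinned, Ephb2 was at 0.269 and Ccl5 at 0.562. With the bed at 2 UMIs and 50 CPM, Uchl1 was at 1.59, Vip at 10.7 and the enteric neuron list at 4.29. The causes were not tested. Of 1816 values of 96 named genes under alternatives, 1391 lay inside the main interval, and of 779 values of 41 lists 455 did. The within-kind, single-spot and interval settings were chosen after seeing the data. The bed is 28 spots of 1 library, its pieces are not tied to animals, and intervals leave out variation between animals.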

Other observations

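Vessel and immune lists beyond those above differed in part. Of 11 blood endothelium genes 5 were higher and 0 lower, beside 10.1% and 6.89% of all genes. Among the higher was Pecam1, an adhesion molecule of endothelium, at 2.05 [1.34 to 3.03] and 1.34 without piece 2 and 4.14 without piece 3. Podoplanin, Pdpn, of lymphatic vessels and activated stroma, was 4.35 [3.14 to 5.96] times higher with the pieces apart, whereas the lymphatic chemokine Ccl21a was at 0.395 [0.288 to 0.528], or 1.23 without piece 3 and 0.142 without piece 2. Alox5ap, needed for leukotriene synthesis, was 4.99 [3.39 to 7.24] times higher and 7.76 times without piece 3, and Hpgd, which inactivates prostaglandins, was at 0.461 [0.338 to 0.616]. Both had the pieces apart, but Hpgd was at 0.502 without piece 1 and 0.550 within kind, which ends the call. With a bed by Plet1 and Krt14 alone Alox5ap was at 1.17, Pdpn at 1.96 and Plod2 at 1.09, all below the 2-fold rule, and Pecam1 was at 1.40 within kind.

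Of 11 compared interferon-response genes 3 were higher and 0 lower, beside 10.1% and 6.89% of all genes. Oasl2 was 2.80 [1.68 to 4.49] times higher in the WT bed and 1.04 in the KO bed, and the difference was not tested. Its WT call was lost with a bed by Arg1 and Spp1 alone, at 1.47, with spots thinned to 5000 UMIs, at 1.85, and within kind, at 1.94. Of 17 compared genes of hypoxia and glycolysis 3 were higher and 2 lower, beside the 10.1% and 6.89% of all genes, and the summed ratio was 0.785 [0.754 to 0.818]. Plod2, a collagen-modifying enzyme, was at 3.49 [2.30 to 5.18] and 6.08 without piece 3, while the glycolytic enzyme Hk2 was at 0.354 [0.181 to 0.627].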
